A study of Mus musculus with 8 samples.

Results

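The Igf2-H19 locus and the insulin-like growth factor (IGF) pathway that it feeds were followed through 8 genes of the 24980 gene symbols in the count table, namely H19, Igf2, Igf1, Igf1r, Insr, Igf2r, Irs1 and Irs2. The 8 genes were listed by symbol, and chosen by earlier values of these same libraries, namely their counts in the 4 groups and the changes between them, so their levels are given as a description, with folds and standard errors but without a p-value. All 8 symbols were found in the table, and all 8 were among the 17582 genes that passed the filter on low counts. H19 passed it although both libraries of 1 group held no count of it.

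Igf2 encodes a secreted growth factor of the embryo and of differentiating myoblasts, and H19, its neighbour, is transcribed into a long noncoding RNA that is also the precursor of miR-675. The pair is imprinted, which means that Igf2 is normally read from the paternal chromosome and H19 from the maternal chromosome, with a methylated control region and shared downstream enhancers between them setting the choice. IGF1 and IGF2 bind the receptor encoded by Igf1r and, for IGF2, an isoform of the insulin receptor encoded by Insr, and the adaptors encoded by Irs1 and Irs2 carry the signal to PI3 kinase and Akt, while the product of Igf2r takes IGF2 up for degradation.

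The data were RNA-seq estimated counts from 8 libraries of mouse skeletal myogenic cells, with 2 biological replicates in each of 4 groups. TF cells were myogenic progenitors isolated from teratomas that E14 mouse embryonic stem cells carrying EGFP had formed in the irradiated and cardiotoxin-injured tibialis anterior of NSG-mdx4Cv mice, and TE cells were progenitors of that origin expanded in culture to passage 8. SF cells were freshly taken satellite cells, which are the resident stem cells of mature muscle, and SE cells were satellite cells expanded to passage 8. The teratoma-derived cells were sorted as EGFP+, CD31-, CD45-, α7-integrin+ and VCAM-1+ cells and come from a single stem cell line, both expanded groups were grown on gelatin in myogenic expansion medium, and the satellite cells were from adult mice whose strain, exact age and sorting gate were not given in the sources used here.

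Library totals ran from 11930881 to 21146554 counts, and the ribosomal RNA precursor Rn45s took 7.99% to 21.3% of them. Levels below are normalized counts, that is, counts divided by the median-ratio size factor of the library, and 3 counts, taken as the limit of detection, correspond to 2.15 to 3.89 normalized counts, which covers counting error only. Folds of the 8 genes are ratios of group means of these levels. Log2 differences and standard errors come from the edgeR fit with TMM scaling, so a fold and its log2 can differ in size. All 7 markers of satellite and myogenic progenitor cells were detected in every group, with summed levels of 23371 and 28721 in TF, 30942 and 31972 in TE, 59247 and 68735 in SF, and 38260 and 43739 in SE. The fresh libraries also held RNA of other cell types. The 7 fibro-adipogenic markers summed to between 20770 and 33506 in the 4 fresh libraries and to between 35.5 and 133 in the 4 expanded ones, with Dpt and Smoc2 at 0 in both TE libraries and Lum at 0 in both SE libraries. The 6 endothelial markers summed to between 1073 and 6015 in the fresh libraries and to between 6.94 and 33.6 in the expanded ones, with Kdr, Emcn and Cldn5 at 0 in every expanded library. The 6 haematopoietic markers summed to 7538 in TF replicate 1 and to between 594 and 714 in the other fresh libraries, although the sort of the teratoma cells selected against CD31 and CD45. Markers of liver and yolk sac endoderm summed to 367 and 502 in TF, 0 in both TE libraries, and at most 14.01 in the satellite libraries. Cartilage markers summed to 9923 and 6325 in TF, 185 and 188 in TE, 4587 and 4788 in SF, and 1900 and 971 in SE. Most of the satellite sums was Sox9 alone, at 4381 and 4727 in SF and 1893 and 966 in SE. Col2a1 was at 5842 and 2102 in TF, 113 and 44.5 in SF, and 6.44 and 4.29 in SE. Pericyte and smooth muscle markers summed to between 15218 and 28291 in the fresh libraries and to between 3612 and 3887 in the expanded ones, Schwann cell markers to between 181 and 1120 in the fresh and between 33.9 and 66.9 in the expanded ones, and pluripotency markers to at most 173. Most of the pericyte and smooth muscle sum of the expanded libraries was Notch3, between 2322 and 3226, with Kcnj8 at 0 in each.

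Each of the 2 genes of the locus hosts a miRNA, and the sequences are shown because they tie the transcripts measured below to the small RNAs that can be cut from them. In the RefSeq annotation of GRCm38.p6 the miR-675 hairpin lies at chr7:142577064-142577147 on the minus strand, inside an exon of H19, and the miR-483 hairpin lies at chr7:142654924-142654996 on the minus strand, inside Igf2 but in none of its annotated exons. Capitals mark the 2 mature arms in the hairpins and the seed (bases 2 to 8) in the mature sequences.
miR-675 hairpin: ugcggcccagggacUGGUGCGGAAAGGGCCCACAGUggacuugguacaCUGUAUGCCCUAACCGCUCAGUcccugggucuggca
miR-675-5p: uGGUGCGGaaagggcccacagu
miR-675-3p: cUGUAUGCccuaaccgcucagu
miR-483 hairpin: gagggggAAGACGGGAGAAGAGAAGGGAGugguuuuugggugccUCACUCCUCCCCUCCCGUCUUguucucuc
miR-483-5p: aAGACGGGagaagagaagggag
miR-483-3p: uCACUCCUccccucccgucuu
The 4 arms have 4 different seeds. The Mir675 row of the table held 0 counts in all 8 libraries, and the Mir483 row held 6 counts in TE replicate 2, 5 in SE replicate 2 and 0 in the other libraries. The library kit was one for total RNA and not for small RNA, so no level of a mature miRNA is given.

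H19 (GRCm38 chr7:142575529-142578143, minus strand, a long noncoding RNA) was among the most abundant transcripts of expanded satellite cells and was not detected in expanded teratoma-derived cells. Its normalized count was 4740 and 1299 in the TF replicates, 0 and 0 in TE, 656 and 490 in SF, and 126010 and 281167 in SE. No library of a group overlapped another group, and the order of the means was SE, TF, SF and TE. The estimated counts behind these values were 176179 and 327651 in SE, 3651 and 1056 in TF, 515 and 430 in SF, and 0 of 19198747 and 0 of 18342610 in TE, where 3 counts correspond to 2.25 and 2.31 normalized counts.

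In terms of folds, the mean of H19 was 203589 ± 109712 in SE (SD, n = 2) against 573 ± 117 in SF (SD, n = 2), which was 355-fold higher (log2 8.67, standard error 0.79), or 7.98 on the log2 scale without SE replicate 2. In the teratoma-derived cells expansion went the other way, and H19 was at least 1325-fold lower in TE than in TF when the limit of 3 counts per library stood in for the zeros. This bound was 570-fold without TF replicate 1 and 2079-fold without TF replicate 2. Against SE it was at least 89307-fold lower in TE on the same footing, or 55276-fold without SE replicate 2. Between the fresh groups, H19 was 5.27-fold higher in TF than in SF (log2 2.56, standard error 0.61), and 1 library set much of that size. Without TF replicate 1 the log2 difference was 1.35, and without TF replicate 2 it was 3.21.

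Ranked by mean level among the 24980 gene symbols, H19 stood at place 2 in SE, place 731 in TF and place 4544 in SF. It took 0.833% and 1.92% of all counts in the SE replicates and 0.0306% and 0.00867% in the TF replicates. The replicates of a group were not equally close for this gene, the higher being 3.65 times the lower in TF, 2.23 times in SE and 1.34 times in SF. The terminal muscle differentiation genes summed to 284378 in SE replicate 2 and to 125392 in SE replicate 1, the same order as H19, and their part in the difference between these replicates was not tested. TF replicate 1, the higher of its pair for H19, was also the higher for haematopoietic markers (7538 against 714) and endothelial markers (3646 against 1073). The same held for the terminal muscle differentiation genes (25091 against 12634). Its sums of satellite and myogenic progenitor, pericyte and smooth muscle, and liver and yolk sac endoderm markers were the lower of the pair. The part of any of these in the H19 difference was not tested. The liver and yolk sac endoderm markers, found in TF and at 0 in TE as H19 was, were not tested for their part either.

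Igf2 (GRCm38 chr7:142650766-142666816, minus strand, protein coding) was high in both teratoma-derived groups and lowest in fresh satellite cells. Its normalized count was 80959 and 91152 in TF, 127570 and 128907 in TE, 2048 and 2136 in SF, and 16827 and 47879 in SE. Again no library overlapped another group, but the order of the means differed from that of H19, with TE first, then TF, SE and SF. It stood at place 3 of all gene symbols in TE, 8 in TF, 22 in SE and 1380 in SF.

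Igf2 in TE and TF differed by less than in any other pair of groups, with means of 128239 ± 945 and 86055 ± 7207 (SD, n = 2 each), a 1.49-fold difference (log2 0.63, standard error 0.41). In satellite cells expansion was accompanied by a 15.5-fold higher level, 32353 ± 21957 in SE against 2092 ± 61.8 in SF (SD, n = 2 each; log2 4.15, standard error 0.46). By origin, Igf2 was 41.1-fold higher in TF than in SF (log2 5.52, standard error 0.49) and 3.96-fold higher in TE than in SE (log2 2.01, standard error 0.42). The difference between the effects of expansion in the teratoma-derived and the satellite cells, called the interaction here, was -3.51 on the log2 scale (standard error 0.59). The SE replicates set the spread of these values. Without SE replicate 2 the SE versus SF difference was 3.20, the TE versus SE difference 2.96 and the interaction -2.57, and without SE replicate 1 the SE versus SF difference was 4.73.

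**Figure D1:**
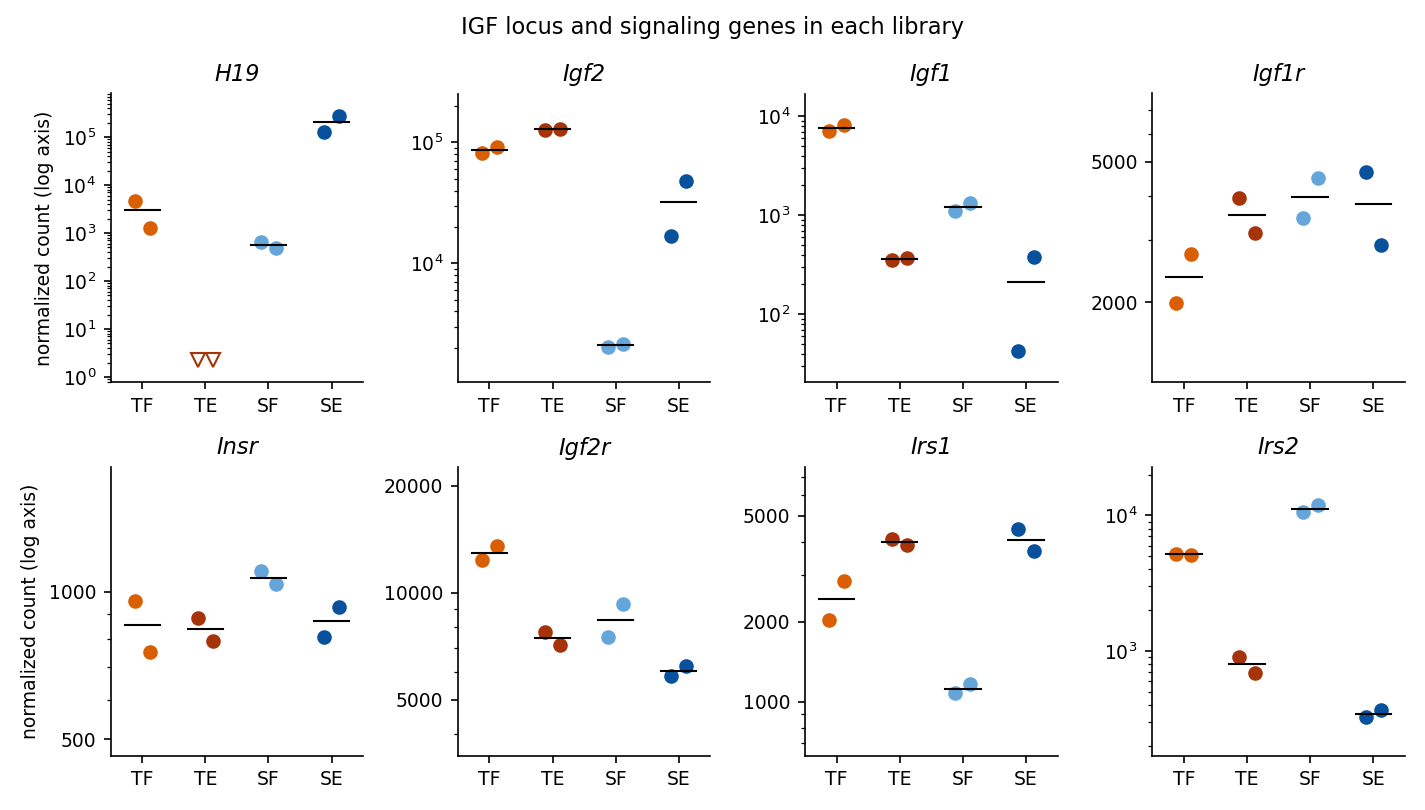
Normalized counts (log axis, a separate scale in each panel) of the 8 genes in the libraries of TF, TE, SF and SE. Each filled circle is a library, each bar the mean of its group, and open triangles mark the limit of 3 counts where no count was found. H19 is at 126010 and 281167 in SE and at 0 in both TE libraries, while Igf2 is at 127570 and 128907 in TE.

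Read against each other per kilobase of merged exons (2.46 kb for H19 and 5.723 kb for Igf2), the 2 neighbours had a different ratio in each group. H19 per Igf2 was 17.4 and 13.7 in the SE replicates, 0.745 and 0.534 in SF, 0.136 and 0.0332 in TF, and at most 4.1e-05 and 4.17e-05 in TE, where H19 was set to the limit of detection. H19 was thus the more abundant transcript per kilobase only in SE, and Igf2 was the more abundant in the other 6 libraries. The 2 SF libraries came closest to equal levels, with Igf2 at 1.34 and 1.87 times H19.

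The groups did not overlap in this ratio. In SE both genes were higher in replicate 2, so that the ratio was 17.4 and 13.7 while H19 itself differed 2.23-fold and Igf2 2.85-fold. In TF the replicates had Igf2 within 1.13-fold of each other and H19 3.65-fold apart. Together the 2 transcripts took 0.944% and 2.25% of all counts in SE, 0.887% and 0.912% in TE, 0.553% and 0.617% in TF, and 0.0152% and 0.0136% in SF. With the length of the longest transcript in place of merged exons, a choice made after the data had been seen, the ratios became 15.5 and 12.1 in SE and 0.121 and 0.0294 in TF. Over the 8 libraries the log2 levels of H19 and Igf2 had a Pearson r of -0.27 (n = 8), a description only, since the points are 4 pairs of replicates.

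**Figure D2:**
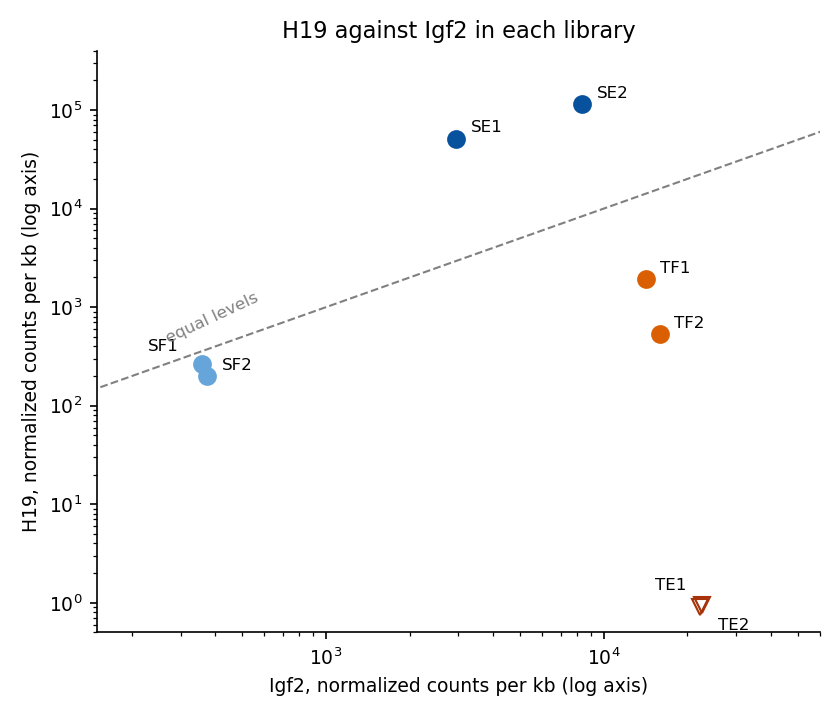
H19 against Igf2 in normalized counts per kilobase of merged exons (both axes log), 1 point for each library. Points above the dashed line have more H19 than Igf2, and the open triangles place the TE libraries, with no H19 count, at the limit of 3 counts. The SE libraries lie above the line with ratios of 17.4 and 13.7, the SF libraries just under it, and the TF and TE libraries below it.

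The second ligand gene, Igf1 (GRCm38 chr10:87858265-87937042, plus strand), which encodes the growth factor made in liver, muscle and connective tissue, was highest in fresh teratoma-derived cells and lower in both expanded groups. Its normalized count was 7050 and 8167 in TF, 356 and 375 in TE, 1101 and 1338 in SF, and 42.9 and 378 in SE. The fresh groups lay above the expanded ones without overlap, whereas TE fell inside the range of the SE replicates, which were 8.80-fold apart.

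Igf1 was 20.8-fold lower in TE than in TF (log2 -4.32, standard error 0.74) and 5.80-fold lower in SE than in SF (log2 -2.35, standard error 0.69). Among fresh cells it was 6.24-fold higher in TF than in SF (log2 2.80, standard error 0.69). Among expanded cells the difference was 0.83 (standard error 0.67) with overlapping libraries, and SE replicate 2 decided its size. Without SE replicate 2 the SE versus SF difference was -4.63, the TE versus SE difference 3.12 and the interaction 0.31 in place of -1.97, and without SE replicate 1 they were -1.48, -0.02 and -2.82. The fibro-adipogenic, endothelial and haematopoietic markers given above were high in the same fresh libraries as Igf1, and their part in these differences was not tested. In bulk RNA, fewer cells of a type and less RNA per cell cannot be told apart.

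Per kilobase, Igf2 exceeded Igf1 in all 8 libraries, by 2.76 and 3.22 times in SF, 19.3 and 19.9 times in TF, 595 and 619 times in TE, and 219 and 679 times in SE. The 2 fresh groups therefore had the lower ratios in both origins. Rows for the insulin genes, the other ligands of Insr, held 0 counts of Ins2 in every library and 31 counts of Ins1 in SF replicate 1 and 0 elsewhere.

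The receptors that signal varied far less than the ligands. Igf1r (GRCm38 chr7:67952827-68233668, plus strand) was at 1984 and 2734 in TF, 3936 and 3128 in TE, 3469 and 4492 in SF, and 4663 and 2902 in SE. The TF libraries were the lowest, and the other 3 groups overlapped. Its mean was 1.497-fold higher in TE than in TF (log2 0.64, standard error 0.28) and 1.69-fold lower in TF than in SF (log2 -0.60, standard error 0.28). For SE versus SF the fitted difference was 0.11 with TMM scaling and -0.07 with median-ratio scaling, so it has no direction here.

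Insr (GRCm38 chr8:3122061-3279617, minus strand), which encodes the insulin receptor, was the steadiest of the 8 genes. It was at 958 and 754 in TF, 884 and 792 in TE, 1101 and 1035 in SF, and 809 and 931 in SE. The SF libraries were the highest, and the other 3 groups overlapped. Its 4 fitted log2 differences between groups lay between -0.16 and 0.02 with TMM scaling, each with a standard error of 0.20. With median-ratio scaling TE versus TF went from 0.02 to -0.03, SE versus SF from -0.10 to -0.30 and TF versus SF from -0.16 to -0.32. Per kilobase, Igf1r exceeded Insr in every library, by 1.69 to 4.72 times.

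Igf2r (GRCm38 chr17:12682406-12769664, minus strand), the mannose 6-phosphate receptor that clears IGF2 and does not signal through the adaptors, was highest in fresh teratoma-derived cells. It was at 12322 and 13514 in TF, 7738 and 7144 in TE, 7488 and 9282 in SF, and 5816 and 6221 in SE. TF stood apart from all other groups, SF and TE overlapped, and SE was the lowest. The gene was 1.74-fold lower in TE than in TF (log2 -0.74, standard error 0.20), 1.54-fold higher in TF than in SF (log2 0.78, standard error 0.20) and 1.39-fold lower in SE than in SF (log2 -0.29, standard error 0.20). With median-ratio in place of TMM scaling the fitted SE versus SF difference was -0.48. Per kilobase it exceeded Igf1r by 8.92 and 11.2 times in TF and by 2.25 to 4.12 times in the other 6 libraries. Over the 8 libraries its log2 level followed that of Igf1 more closely than that of Igf2, with a Pearson r of 0.93 against 0.18 (n = 8, in the same 4 pairs of replicates).

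The 2 adaptor genes went in opposite directions with expansion. Irs1 (GRCm38 chr1:82233101-82291416, minus strand) was at 2027 and 2858 in TF, 4103 and 3882 in TE, 1078 and 1165 in SF, and 4447 and 3696 in SE. The 2 expanded groups overlapped at the top, TF lay between, and SF was the lowest. Irs1 was 3.63-fold higher in SE than in SF (log2 2.05, standard error 0.22), 1.63-fold higher in TE than in TF (log2 0.76, standard error 0.21) and 2.18-fold higher in TF than in SF (log2 1.28, standard error 0.21).

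Irs2 (GRCm38 chr8:10984681-11008458, minus strand) was at 5157 and 5155 in TF, 908 and 689 in TE, 10614 and 11878 in SF, and 325 and 368 in SE. No group overlapped another, with SF first, then TF, TE and SE. It was 32.4-fold lower in SE than in SF (log2 -4.83, standard error 0.23), 6.46-fold lower in TE than in TF (log2 -2.63, standard error 0.21), 2.18-fold lower in TF than in SF (log2 -0.97, standard error 0.20) and 2.30-fold higher in TE than in SE (log2 1.23, standard error 0.20). The markers of fibro-adipogenic and endothelial cells were likewise higher in the fresh libraries, and their part in the Irs2 difference was not tested.

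Which adaptor was the more abundant per kilobase therefore differed between the fresh and the expanded libraries. Irs2 exceeded Irs1 by 14.2 and 14.7 times in SF and by 3.68 and 2.61 times in TF. Irs1 exceeded Irs2 by 3.12 and 3.89 times in TE and by 9.45 and 6.94 times in SE. The expanded and fresh libraries did not overlap in this ratio, and the teratoma-derived libraries lay between the satellite ones in both states. The part of other cell types and of differentiating cells in this ratio was not tested. The interaction was -1.29 for Irs1 (log2, standard error 0.30) and 2.19 for Irs2 (standard error 0.28). The log2 levels of the 2 genes had a Pearson r of -0.91 over the 8 libraries (n = 8, in 4 pairs of replicates).

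**Figure D3:**
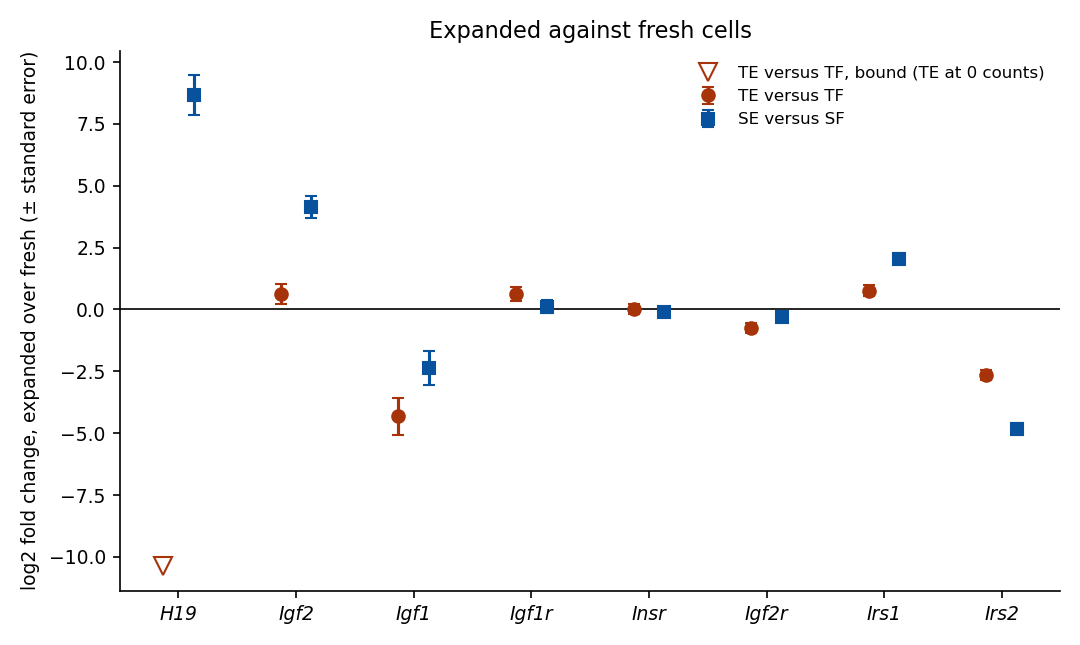
Log2 fold change of the 8 genes with expansion, TE over TF (circles) and SE over SF (squares), from the edgeR fit, with bars of 1 standard error. The open triangle is the bound for H19 in TE versus TF, where TE had no count. H19 lies at 8.67 in satellite cells and at or beyond a 1325-fold decrease in teratoma-derived cells, whereas Irs2 is lower and Irs1 higher in both.

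The promoter windows of this adaptor pair are shown because the 2 genes moved apart in both origins. The RefSeq table of GRCm38.p6 gave windows of 300 bases around the start for 6 of the 8 genes, with 4 windows for Igf2 and 1 each for Igf1, Igf1r, Igf2r, Irs1 and Irs2. Capitals mark the letters CACGTG, an E-box, which read the same on both strands.
Irs1, chr1:82291390-82291689, minus strand: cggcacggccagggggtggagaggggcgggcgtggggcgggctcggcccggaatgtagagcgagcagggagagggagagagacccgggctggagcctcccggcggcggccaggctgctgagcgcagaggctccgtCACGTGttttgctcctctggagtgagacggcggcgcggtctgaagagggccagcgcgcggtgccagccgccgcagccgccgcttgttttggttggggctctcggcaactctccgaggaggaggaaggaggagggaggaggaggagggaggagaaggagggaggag
Irs2, chr8:11008880-11009179, minus strand: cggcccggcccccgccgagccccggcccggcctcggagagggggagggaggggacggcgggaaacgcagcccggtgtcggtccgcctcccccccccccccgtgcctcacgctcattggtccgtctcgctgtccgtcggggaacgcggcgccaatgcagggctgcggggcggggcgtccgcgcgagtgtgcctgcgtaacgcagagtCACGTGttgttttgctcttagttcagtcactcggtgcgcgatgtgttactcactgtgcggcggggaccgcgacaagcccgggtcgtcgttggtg
CACGTG began at position -115 from the start in Irs1 and at -44 in Irs2, and it was also in the Igf2r window. It was in 7.15% of all 32851 windows of this length. The other letters searched, on both strands, were CAGCTG, in 16.3% of all windows and once in the Igf1 window, GTAAACA, a forkhead motif, in 3.65% of all windows, and a CTCF core motif, in 0.0365%. Neither of the last pair was found in the 9 windows of these genes. Such matches are a description of letters in these windows.

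By the call rule used across all genes (edgeR's quasi-likelihood test, Benjamini-Hochberg adjusted p below 0.05 and a minimum fold), 5 of the 8 genes were called in TE versus TF, where 26.1% of all 17582 genes were called, and 5 of 8 in SE versus SF, where 40.7% were. The count was 6 of 8 in TF versus SF (24.2% of all genes), 3 of 8 in TE versus SE (7.21%) and 4 of 8 in the interaction (14.3%). By direction, Irs1 was called higher and H19, Igf1, Igf2r and Irs2 lower in TE versus TF (9.86% and 16.2% of all genes), and H19, Igf2 and Irs1 higher and Igf1 and Irs2 lower in SE versus SF (20.9% and 19.8%). In TF versus SF all 6 but Irs2 were called higher (15.1% and 9.13%), in TE versus SE Igf2 and Irs2 higher and H19 lower (3.15% and 4.07%), and in the interaction Irs2 upward and H19, Igf2 and Irs1 downward (4.7% and 9.62%). The genes were chosen with these values known, so nothing is read from these counts. The comparisons share groups with each other. With median-ratio in place of TMM scaling the median log2 change of all genes shifted by -0.19 in SE versus SF, -0.16 in TF versus SF and 0.14 in the interaction. The calls over all genes then split into 3064 higher and 3958 lower in SE versus SF in place of 3677 and 3475, into 2110 and 1943 in TF versus SF in place of 2655 and 1606, and into 1057 and 1453 in the interaction in place of 826 and 1691.

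The pathway downstream of the receptors was described with a list of 40 other genes, also drawn up with earlier results known, of which 39 were tested (Irs4 was not). With expansion, 14 of the 39 rose and 6 fell in satellite cells (SE versus SF), and 8 rose and 4 fell in teratoma-derived cells (TE versus TF). These are 51.3% and 30.8% of the list, beside 40.7% and 26.1% of all genes. The 20 calls in SE versus SF were more than in any alternative run. On only the groups compared 14 of the list were called there, and with glmTreat 15. Over all genes these runs called 6329 and 6382 in place of 7152. The median log2 change of the list was 0.30 in SE versus SF, where that of all genes was -0.23, and 0.23 in TE versus TF, where it was -0.18. By origin, 7 were higher and 3 lower in TF than in SF, 3 were higher and 3 lower in TE than in SE, and 5 were called in the interaction, 1 upward and 4 downward. These are 25.6%, 15.4% and 12.8% of the list, beside 24.2%, 7.21% and 14.3% of all genes. With median-ratio scaling the calls of the list split into 10 higher and 7 lower in SE versus SF, 6 and 5 in TF versus SF, and 2 and 2 in the interaction.

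Grb10, an imprinted gene whose product is an adaptor that dampens signaling from the IGF1 and insulin receptors, was the signaling gene with the largest difference by origin. It was at 44.1 and 86.1 in TF, 3.0 and 28.5 in TE, 3800 and 4163 in SF, and 563 and 1253 in SE, so every satellite library lay above every teratoma-derived one. The log2 difference was -5.77 in TF versus SF (standard error 0.69, edgeR adjusted p = 0.000546) and -5.83 in TE versus SE (standard error 0.72, adjusted p = 0.00159), which was -4.95 without TE replicate 1, -8.16 without TE replicate 2 and -5.13 without SE replicate 2. It fell in SE versus SF by 1.94 (edgeR adjusted p = 0.0207), with -2.63 without SE replicate 2, a call lost with DESeq2 (adjusted p = 0.0695) and without SF replicate 1 (adjusted p = 0.052). In TE versus TF its difference of -2.00 missed the threshold (adjusted p = 0.0707).

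Grb14, a related adaptor, was at 157 and 128 in TF, 14.2 and 10.02 in TE, 35.7 and 79.8 in SF, and 127 and 117 in SE. Its log2 change was -3.49 in TE versus TF (edgeR adjusted p = 0.00524) and 1.254 in SE versus SF (adjusted p = 0.136), with an interaction of -4.74 (standard error 0.93, adjusted p = 0.00918). Its TE versus SE difference was -3.29 (edgeR adjusted p = 0.0193), which did not pass without TE replicate 1 (adjusted p = 0.084) or without TE replicate 2 (adjusted p = 0.134). Its 2 TE libraries were the lowest of the 8, and the interaction was -5.49 without SF replicate 2.

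Several genes that limit or relay the PI3 kinase signal also differed between the effects of expansion. Inppl1, which encodes the lipid phosphatase SHIP2, was at 631 and 484 in SF and at 4171 and 7126 in SE, and at 2242 and 2674 in TF and 6579 and 6558 in TE. It rose by 3.54 (log2) in SE versus SF (edgeR adjusted p = 2.03e-05) and by 1.47 in TE versus TF (adjusted p = 0.00307), an interaction of -2.07 (adjusted p = 0.00629). Pik3r1, the main regulatory subunit of PI3 kinase, was at 2665 and 2549 in SF and at 1007 and 732 in SE, and at 2380 and 2818 in TF and 2599 and 2158 in TE. It fell by 1.39 in SE versus SF (adjusted p = 0.000713), and its interaction of 1.32 (adjusted p = 0.0167) did not pass without TF replicate 1 (adjusted p = 0.0746) or without TE replicate 1 (adjusted p = 0.0944).

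Socs2, a feedback inhibitor of growth hormone signaling, was at 325 and 401 in SF and at 874 and 901 in SE, and rose by 1.48 in SE versus SF (edgeR adjusted p = 0.000988). It was at 484 and 592 in TF and at 719 and 584 in TE. Its interaction of -1.15 (adjusted p = 0.0466) was near the threshold and was lost in 10 of 13 alternatives.

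Trib3, a pseudokinase that binds Akt, was at 32.5 and 150.1 in TF, 3496 and 3018 in TE, 24.2 and 54.7 in SF, and 172 and 352 in SE. It rose by 5.20 (log2) in TE versus TF (edgeR adjusted p = 0.000411) and by 2.90 in SE versus SF (adjusted p = 0.0059), and was 3.66 higher in TE than in SE (adjusted p = 0.00654). These values ranged with the library left out, to 4.52 without TF replicate 1 and 6.73 without TF replicate 2 in TE versus TF, to 3.66 without SF replicate 2 and 2.29 without SE replicate 2 in SE versus SF, and to 4.28 without SE replicate 2 in TE versus SE. Eif4ebp1, the translation repressor that mTOR inactivates, rose by 2.35 in TE versus TF (edgeR adjusted p = 3.14e-05) and by 1.97 in SE versus SF (adjusted p = 4.8e-05). Gab1, a docking protein, changed by -2.11 in TE versus TF (adjusted p = 0.000389) and by -3.04 in SE versus SF (adjusted p = 3.6e-05). Pik3r3, another regulatory subunit, was 1.45 higher in TF than in SF (adjusted p = 0.00913), and Rps6kb1, the S6 kinase, differed by -0.86 there (adjusted p = 0.0198), which did not pass without TF replicate 1, TF replicate 2 or SF replicate 2 (adjusted p = 0.0598 to 0.127).

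**Figure D4:**
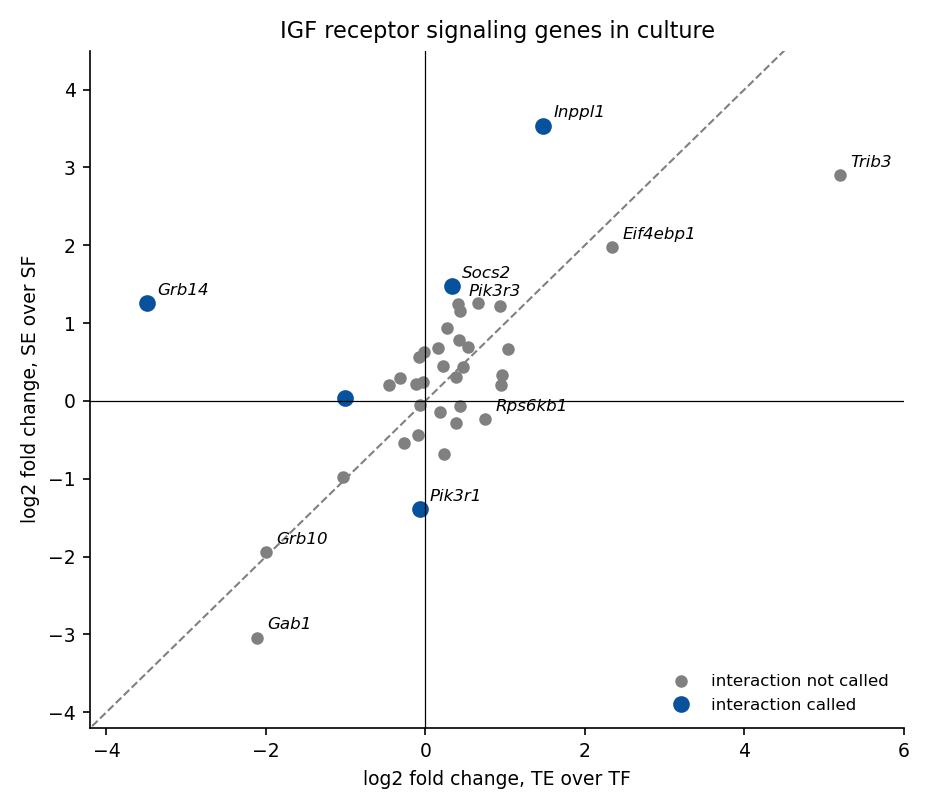
Log2 fold change with expansion of the 39 IGF receptor signaling genes tested, TE over TF (horizontal) against SE over SF (vertical), from the edgeR fit. Blue points are the 5 genes called in the interaction and the dashed line marks equal change. Grb14 lies farthest from the line at -3.49 and 1.254, and the 2 axes share no library.

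Of 12 targets of the FoxO factors, which Akt signaling holds in check, 2 rose and 2 fell in TE versus TF, and 3 rose and 4 fell in SE versus SF. These are 33.3% and 58.3% of the list, beside 26.1% and 40.7% of all genes. Those that fell were Gabarapl1 and Sesn3 in TE versus TF and Gabarapl1, Cdkn1b, Klf15 and Txnip in SE versus SF, named after their values were seen. Bnip3, a mitophagy gene, was at 2995 and 3427 in SE, 438 and 530.4 in TE, 283 and 251 in TF, and 82.8 and 138 in SF, and Fbxo32, a ubiquitin ligase of muscle atrophy, was at 5165 and 4191 in SE and between 286 and 732 in the other 6 libraries. The interaction was -4.13 for Bnip3 (edgeR adjusted p = 0.000243) and -3.02 for Fbxo32 (adjusted p = 0.00229). Trim63, the other ubiquitin ligase of atrophy, rose by 3.21 in TE versus TF (adjusted p = 0.0275) and by 3.09 in SE versus SF (adjusted p = 0.0209), the latter lost without SF replicate 1 (adjusted p = 0.108) or SE replicate 2 (adjusted p = 0.076). Its TE versus TF value was 6.12 without TF replicate 1 and 2.34 without TF replicate 2, and its SE versus SF value was 3.71 without SE replicate 1 and 2.06 without SE replicate 2. The median of the list was 0.04 in TE versus TF and 0.43 in SE versus SF, where that of all genes was -0.18 and -0.23.

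The list of IGF binding proteins and the proteases that cut them, 11 tested of 13, also held Igfals, Stc1 and Stc2. Its genes were for the most part called lower after expansion. None rose and 8 fell in TE versus TF (median log2 change -2.87), and 3 rose and 7 fell in SE versus SF (median -1.76). Those that rose were Igfbp2, Igfbp3 and Stc2. Of all genes, 9.86% rose and 16.2% fell in TE versus TF and 20.9% rose and 19.8% fell in SE versus SF, with medians of -0.18 and -0.23. In the interaction 6 of the 11 were called, which is 54.5% beside 14.3% of all genes. Igfbp2 had the largest interaction of the 11 and was at 2377 and 2663 in TF, 64.4 and 88.7 in TE, 6.37 and 5.70 in SF, and 270.4 and 237 in SE, with an interaction of -10.54 (edgeR adjusted p = 6.67e-06). Igfbp7 fell, with changes of -4.97 in TE versus TF (adjusted p = 6.16e-06) and -1.94 in SE versus SF (adjusted p = 0.000349). Pappa, a protease that frees IGF from its binding proteins, was at 0.715 and 7.72 in SE and fell by 5.91 in SE versus SF (adjusted p = 0.000219), with -4.97 without SE replicate 1 and -8.23 without SE replicate 2. The fibro-adipogenic markers moved with the same split of fresh and expanded libraries, and their part was not tested.

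Factors that act on the locus were described with 18 tested genes of a list of 19. In SE versus SF 9 rose and 2 fell, and in TE versus TF 4 rose and 2 fell, which is 61.1% and 33.3% of the list beside 40.7% and 26.1% of all genes. Plagl1, an imprinted zinc finger factor that can activate both Igf2 and H19, was at 2384 and 1665 in TF, 24.0 and 21.6 in TE, 1727 and 1419 in SF, and 6996 and 3622 in SE. It fell by 6.41 (log2) in TE versus TF (edgeR adjusted p = 7.27e-06), rose by 1.95 in SE versus SF (adjusted p = 0.000893), and differed by -7.83 in TE versus SE (adjusted p = 2.03e-05), in the same direction as H19 in each of these comparisons. Igf2 shared its direction only in SE versus SF (log2 4.15). In TE versus TF (0.63, not called) and TE versus SE (2.01) Igf2 went the other way. The part of Plagl1 in the level of either gene was not tested. Hmga2, an embryonic chromatin protein, rose by 5.30 in SE versus SF (adjusted p = 0.00271) and by 3.76 in TE versus TF (adjusted p = 0.0201), the latter lost without TF replicate 2 (adjusted p = 0.0667) and 4.76 without TF replicate 1. Its SE versus SF value ran from 4.31 without SE replicate 1 and 4.37 without SF replicate 2 to 5.91 without SE replicate 2 and 8.82 without SF replicate 1. Uhrf1, which brings the maintenance methyltransferase to DNA, rose by 5.09 in SE versus SF (adjusted p = 0.00112), with values of 4.15 without SF replicate 2, 4.45 without SE replicate 1 and 8.63 without SF replicate 1. Its interaction of -4.56 (edgeR adjusted p = 0.0185) did not pass with DESeq2 (adjusted p = 0.0594), and was -8.07 without SF replicate 1, -3.61 without SF replicate 2 and -3.89 without SE replicate 1.

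Around H19 and Igf2 on distal chromosome 7, 15 genes of a list of 21 were tested. Of these, 2 rose and 3 fell in TE versus TF, and 6 rose and 2 fell in SE versus SF, which is 33.3% and 53.3% beside 26.1% and 40.7% of all genes. Nctc1, the gene of the list nearest to H19, was at 20.97 and 11.6 in TE and at 30.8 and 160 in SE, a difference that missed the threshold (edgeR adjusted p = 0.213). Igf2os, an antisense transcript that overlaps Igf2, was at 117 and 162 in TF, 521 and 499 in TE, 107 and 10.3 in SF, and 76.5 and 60.9 in SE, and its TE versus SE difference of 2.91 also missed the threshold (adjusted p = 0.0527). The kit keeps the strand, but whether the counting used it was not given in the sources used here, so reads of Igf2os and of Igf2 may not be told apart. Tnnt3, a fast troponin gene near H19, rose by 5.01 in SE versus SF (adjusted p = 7.75e-05; 4.19 without SE replicate 2) and by 2.68 in TE versus TF (adjusted p = 0.00261; 3.36 without TF replicate 1). Kcnq1ot1, the noncoding RNA of the adjacent imprinted domain, was at 154523 and 26250 in SF, and its log2 change of -3.74 in SE versus SF (adjusted p = 0.00194) was -2.00 without SF replicate 1 and -4.48 without SF replicate 2.

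Cdkn1c, an imprinted inhibitor of the cell cycle in the same domain, was chosen after its values were seen. It was at 5753 and 5966 in TF, 15385 and 14319 in TE, 575 and 854 in SF, and 439 and 2223 in SE. It was 3.4995 higher (log2) in TE than in SE (edgeR adjusted p = 0.00844), with 2.76 without SE replicate 1 and 5.11 without SE replicate 2, and 3.19 higher in TF than in SF (adjusted p = 0.00524). Trpm5, a channel gene of the domain, was at 0 in both TE libraries against 51.9 and 88.6 in TF (adjusted p = 0.0126). Around Igf2r, 5 of 7 neighbours were tested. In TE versus TF and in TE versus SE edgeR called 0 of the 5, beside 26.1% and 7.21% of all genes. In each, 1 had an unadjusted edgeR p below 0.05, and DESeq2 called 0 and 1. In SE versus SF 2 were lower, in TF versus SF 3 were lower, and in the interaction 1 was higher. These are 40%, 60% and 20% of the 5, beside 40.7%, 24.2% and 14.3% of all genes. Airn, the noncoding RNA that silences the paternal Igf2r in many tissues, was at 1171 and 1314 in SF and between 50.1 and 215 in the other 6 libraries, and fell by 2.78 in SE versus SF (adjusted p = 0.00043), with -3.42 without SE replicate 2, and differed by -3.66 in TF versus SF (adjusted p = 0.000399). Slc22a3 was at 110 and 283 in SF and at or below 14.3 in the other libraries, and Mas1 was at 135 and 42.2 in SF and 5.19 and 3.69 in TF, a call (adjusted p = 0.0473) lost in 12 of 14 alternatives, and -3.10 on the log2 scale in place of -4.11 without SF replicate 1.

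A list of 20 other imprinted growth genes, all tested, is given as a description. In TE versus TF 4 rose and 10 fell, in SE versus SF 7 rose and 8 fell, and in TE versus SE 4 were higher and 5 lower. These are 70%, 75% and 45% of the list, beside 26.1%, 40.7% and 7.21% of all genes. Mest, a hydrolase gene read from the paternal chromosome, was at 1574 and 1719 in TF, 30.7 and 79.4 in TE, 506 and 826 in SF, and 18373 and 12627 in SE, with an interaction of -9.57 (edgeR adjusted p = 4.81e-05), or -10.40 without TE replicate 2. Dcn, a matrix proteoglycan that is also among the fibro-adipogenic markers, was between 9758 and 16120 in the fresh libraries and between 0 and 57.7 in the expanded ones. Slc38a4, an amino acid transporter, was at 697 and 795 in TF and at 8.24 and 0 in TE, and at 115 and 161 in SF and 0 in both SE libraries. Of the imprinted genes named here, Mest, Plagl1 and Grb10 were called lower in TE than in SE, as H19 was, and Cdkn1c was called higher there, as Igf2 was. Others, among them Dcn, Slc38a4, Kcnq1ot1 and Airn, were not called there. Cdkn1c was chosen after its values were seen, so nothing is read from this split.

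**Figure D5:**
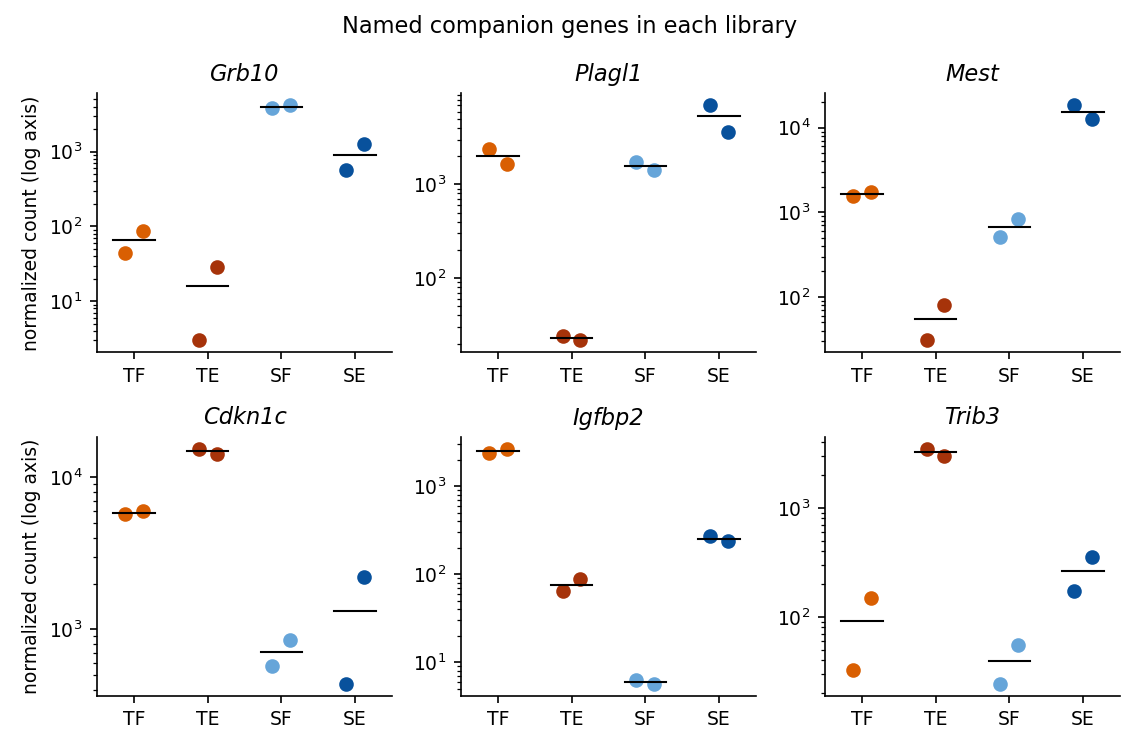
Normalized counts (log axis, a separate scale in each panel) of 6 genes outside the 8 in each library of TF, TE, SF and SE, with circles for libraries and bars for group means. Plagl1 and Mest are lowest in TE and highest in SE, Cdkn1c is highest in TE at 15385 and 14319, and Grb10 is low in all 4 teratoma-derived libraries.

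The genes whose log2 level was most like that of H19 over the 8 libraries, among the 12680 genes whose mean reached 50 normalized counts, were Tro (Pearson r = 0.98), Hoxa11 (0.98), Mest (0.98), Spock1 (0.98) and Iqsec3 (0.97). Those most like Igf2 were Itfg1 (0.99), Phf7 (0.99), Phf14 (0.98), Ccdc8 (0.98) and Dvl2 (0.98). Igf2 stood at place 9906 in the list ordered by likeness to H19, and H19 at place 7736 in the list of Igf2. These are descriptions over 8 libraries that form 4 pairs of replicates. Ordered by Spearman's rho instead, 0 of the first 5 genes were the same in either list. Hoxa11, like H19, was at 0 in both TE libraries, and was at 71.4 and 24.6 in TF, 25.5 and 10.3 in SF, and 372 and 147 in SE.

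Igf2 is a gene of differentiating myoblasts, so terminal muscle differentiation was read beside it, with 14 genes that were all tested. In TE versus TF 10 rose and 1 fell, and in SE versus SF 12 rose and none fell, while in TE versus SE none was higher and 2 were lower, and 11 were lower in the interaction. These are 78.6%, 85.7%, 14.3% and 78.6% of the list, beside 26.1%, 40.7%, 7.21% and 14.3% of all genes. The 14 genes summed to 25091 and 12634 in TF, 146262 and 154277 in TE, 3897 and 3443 in SF, and 125392 and 284378 in SE. Myog, the factor that starts terminal differentiation, was at 1328 and 1449 in TF, 11175 and 11841 in TE, 8.92 and 14.8 in SF, and 3993 and 13510 in SE. Myh3, the embryonic myosin heavy chain, rose by 12.19 (log2) in SE versus SF (edgeR adjusted p = 1.99e-05) and by 4.59 in TE versus TF (adjusted p = 0.00118), and Myh8, the perinatal one, rose by 10.06 in SE versus SF (adjusted p = 0.000158). Without SF replicate 1 these SE versus SF values were 15.48 for Myh3 and 17.67 for Myh8, without SF replicate 2 they were 11.25 and 9.05, and Myh8 was 10.69 without SE replicate 1 and 9.04 without SE replicate 2. Myh3 in TE versus TF was 5.27 without TF replicate 1. Igf2 was lowest in SF, where this sum was also lowest, but it was 80959 and 91152 in TF, where the sum was 25091 and 12634, against 16827 and 47879 in SE. The part of differentiating cells in the levels of Igf2 was not tested.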

How the data were processed

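Total RNA was sequenced in paired-end libraries of 8 samples, 2 biological replicates in each of TF, TE, SF and SE, and p-values measure the spread between these samples. The authors deposited a table of estimated counts per gene symbol, unnormalized. The submitters' processing notes name CASAVA, kallisto 0.44.0, GRCm38 and mm10 without roles, and the step from transcripts to genes was not given in the sources used here.

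Estimated counts were rounded. Genes were filtered with filterByExpr, scaled by TMM and fitted with edgeR's quasi-likelihood test over all 4 groups without a replicate term, and a gene was called at a Benjamini-Hochberg adjusted p below 0.05 and a fold above 1.25. Levels were divided by DESeq2 median-ratio size factors, and by GENCODE M21 merged exon length where given per kilobase. Alternatives were DESeq2, median-ratio scaling, no filter, only the groups compared, a replicate block, glmTreat and leaving out each library. Counts of 17582 genes were simulated with the same mean level in all groups, except for 100 genes at each fold changed in TE alone. In TE versus SE the fit then recovered 25% of 2.5-fold and 67% of 8-fold changes, with 5 false among 97 calls. The real groups differed in many more genes, so these rates may not hold for them.

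The 8 genes, the gene lists and the markers were chosen with earlier results of these data known. By a written rule, the other genes named were those with the largest called changes of each list, the neighbour nearest to a member whether called or not, and the genes most like H19 and Igf2. Cdkn1c and the FoxO targets that fell were added after their values were seen. Sequences came from RefSeq tables of GRCm38.p6. The values of 1 gene of the signaling list are not reported here.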

Additional observations from a re-analysis of the deposited data

Results flagged for a closer look

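H19 went in opposite directions with expansion in every library of the 2 origins, at least 1325-fold lower in TE than in TF and 355-fold higher in SE than in SF. The interaction of edgeR's fit was called downward for H19. Its size is not given because TE had no count, and its p-value is not given because the gene was chosen with these values known.

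In several signaling genes the effect of expansion differed between the origins by edgeR's interaction test. The log2 difference was -4.74 for Grb14 (adjusted p = 0.00918), -2.07 for Inppl1 (adjusted p = 0.00629) and 1.32 for Pik3r1 (adjusted p = 0.0167). It was -1.15 for Socs2 (adjusted p = 0.0466), which was lost in 10 of 13 alternatives.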

How the results depend on the processing

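Of the 40 differences of the 8 genes, the 3 of H19 that rest on TE, which had no count, were given as bounds or not at all. No called difference among the other 37 changed sign under any alternative run. With 1 library left out, 290 of 296 values stayed within the spread between replicates and 6 moved. The spread was the root of the summed replicate variances of the groups compared. The count says little, because leaving out 1 of 2 replicates shifts the mean log2 level of a group by less than their SD. Some of these runs also left out a library of a group not compared. H19 in TF versus SF counted as within the spread, at 2.56 with all libraries and 1.35 without TF replicate 1. DESeq2 and median-ratio scaling moved 4 of 37 values each. The number of genes called in TE versus SE was 1268, and 2260 without the filter and 2147 with DESeq2. Of the signaling genes, 20 in place of 12 were called in TE versus TF on only the groups compared, and in the interaction, which could not be fitted on 2 groups, 8 with DESeq2 and 3 with glmTreat in place of 5.

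With each library left out in turn, genes called ranged from 2739 to 5439 in TE versus TF, 5543 to 7048 in SE versus SF, 2639 to 5072 in TF versus SF, 653 to 1698 in TE versus SE and 1467 to 2996 in the interaction. The lowest counts came without TE replicate 1 or 2 (2759 and 2739 in TE versus TF, 666 and 653 in TE versus SE, 1473 and 1467 in the interaction) and without TF replicate 1 or 2 (2639 and 2671 in TF versus SF). Signaling genes called ranged from 7 to 14, 13 to 18, 5 to 12, 3 to 10 and 2 to 8 in the same order. Here TE versus TF fell to 7 without TE replicate 1, TF versus SF to 5 without TF replicate 2, and TE versus SE was 3 without TE replicate 1 and 10 without SE replicate 2. The interaction gave 2 without TF or TE replicate 1, 3 without TE replicate 2, SF replicate 1 or SE replicate 1, and 8 without SE replicate 2.

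With a replicate block, 4321, 6757, 3979, 1205 and 2327 genes and 13, 18, 10, 6 and 4 signaling genes were called. Same-numbered replicates did not deviate together (r = -0.034 to 0.017 over 12681 genes). Whether they shared a donor, a culture or a batch was not given in the sources used here. These correlations cannot show it. The block lost the Socs2 interaction and the Slc22a3 and Mas1 calls in TF versus SF. Of 97 calls of the named genes, 72 were kept under every alternative. With 2 libraries a group, small differences were often not detectable.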
